A study of Mus musculus with 32 samples.

Results

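The colony-stimulating factor receptors are the cell-surface proteins through which myeloid cells sense the growth factors CSF1, GM-CSF and G-CSF. All 5 of the genes sought by symbol, Csf1r, Csf3r, Csf2ra, Csf2rb and Csf2rb2, were found among the 17586 genes of the deposited table. The cells were taken from mouse brain by flow cytometry, and their RNA was sequenced as 4 populations of 8 libraries each: normal microglia, tumour microglia, and tumour macrophages that the labels call differentiated or undifferentiated. The tumour populations came from chimeric mice implanted in the brain with GL-261 cells, a mouse glioma line grown in culture, and each had 4 libraries from Pep3 into WT chimeras and 4 from WT into Pep3 chimeras. Normal microglia came from mice labelled Nil, with no graft or implant, 4 libraries from WT mice (C57BL/6J, carrying the CD45.2 allele) and 4 from the strain labelled Pep3/CD45.1. The mice have no stated treatment other than graft and implant. Their age, how the chimeras were made, the sorting gates and which CD45 allele the sorted tumour cells carried are not given in the sources used here. Nothing in the labels ties libraries to separate animals, and the p-values below therefore cover only the spread among these libraries, which may be technical.

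CSF1R is a receptor tyrosine kinase that binds CSF1 and IL-34, and signalling through it keeps microglia and most tissue macrophages alive. CSF2RA is the alpha chain that binds GM-CSF, and it signals only together with a beta chain: CSF2RB is the beta chain shared by the GM-CSF, IL-3 and IL-5 receptors, and CSF2RB2 is a mouse beta chain used by the IL-3 receptor alone. CSF3R is the receptor of G-CSF, works as a homodimer, and is best known from neutrophils and their precursors. The beta-chain receptors and CSF3R have no kinase of their own and signal through JAK kinases and STAT transcription factors.

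The deposited values were centred scores, running from -6.50 to 6.92 with a mean of 0 for every gene, so a score says how a library compares with the average of the 32 and not how much RNA there was. No fold changes, expression levels or comparisons of level between genes can be taken from them. Of the 32 sample directions, 11 carried no variation, and 9 libraries kept under 50% of their own variation (4 of normal microglia, 1 of tumour microglia, 2 of differentiated and 2 of undifferentiated macrophages). Microglia and macrophages matched their names in their markers: the mean score of 9 microglia markers ran from 0.63 to 2.48 over the microglia libraries and from -2.29 to -0.55 over the macrophage libraries, while that of 6 markers of blood-derived macrophages ran from -2.59 to -0.94 and from 0.42 to 3.22. Differences below are limma estimates in score units with their SE, averaged over both recipient strains. A gene was called at a Benjamini-Hochberg adjusted p below 0.05 over all 17586 genes, and "rose" and "fell" are used only of called genes.

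The start-site sequences of Csf3r and Csf2ra, whose scores differed between populations, are shown first, because PU.1, the transcription factor that binds the purine-rich core GAGGAA, is known to drive myeloid receptor genes. RefSeq on GRCm38.p6 gave a promoter of 300 bases, from 250 before to 50 after the start, for 3 of the 5 genes: Csf3r, Csf2ra and Csf2rb2, not Csf1r and Csf2rb. Csf3r starts within chr4:126024409-126024708 on the plus strand, and Csf2ra within chr19:61228369-61228668 on the minus strand. Each is written 5′ to 3′ on the strand of the gene, and capitals mark GAGGAA.
Csf3r promoter: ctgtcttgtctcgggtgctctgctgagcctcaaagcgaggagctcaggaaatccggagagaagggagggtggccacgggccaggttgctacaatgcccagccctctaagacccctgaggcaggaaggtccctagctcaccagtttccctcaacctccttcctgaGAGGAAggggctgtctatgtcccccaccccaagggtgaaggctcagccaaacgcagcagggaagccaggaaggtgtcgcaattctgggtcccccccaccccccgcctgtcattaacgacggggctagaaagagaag
Csf2ra promoter: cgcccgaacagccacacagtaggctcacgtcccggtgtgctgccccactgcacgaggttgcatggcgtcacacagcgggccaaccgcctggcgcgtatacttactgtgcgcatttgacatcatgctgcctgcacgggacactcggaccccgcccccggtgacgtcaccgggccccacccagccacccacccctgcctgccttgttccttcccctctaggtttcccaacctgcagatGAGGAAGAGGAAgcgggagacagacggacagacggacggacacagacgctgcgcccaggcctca
The motif occurs 1 time in the Csf3r window and 2 times, side by side without overlap, in the Csf2ra window. The Csf2rb2 promoter at chr15:78305672-78305971, on the minus strand, holds the reverse complement TTCCTC 2 times. Of all 32851 promoters of this length in the RefSeq table, 28.3% hold GAGGAA on either strand, so the match is a description of these windows and not a sign of binding.

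Csf1r scores were high in all microglia and low in all macrophages. In normal microglia the lowest, median and highest scores were 0.85, 1.41 and 1.80. Tumour microglia had 0.42, 0.72 and 1.06. In differentiated macrophages the 3 values were -1.54, -1.02 and -0.45, and in undifferentiated macrophages -1.52, -1.01 and -0.58. All 16 microglia libraries lay above 0 and all 16 macrophage libraries below it, with no overlap, as for 0.574% of all genes. Population accounted for 92.2% of the variance of Csf1r, against a median of 36.9% over all genes.

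**Figure D1:**
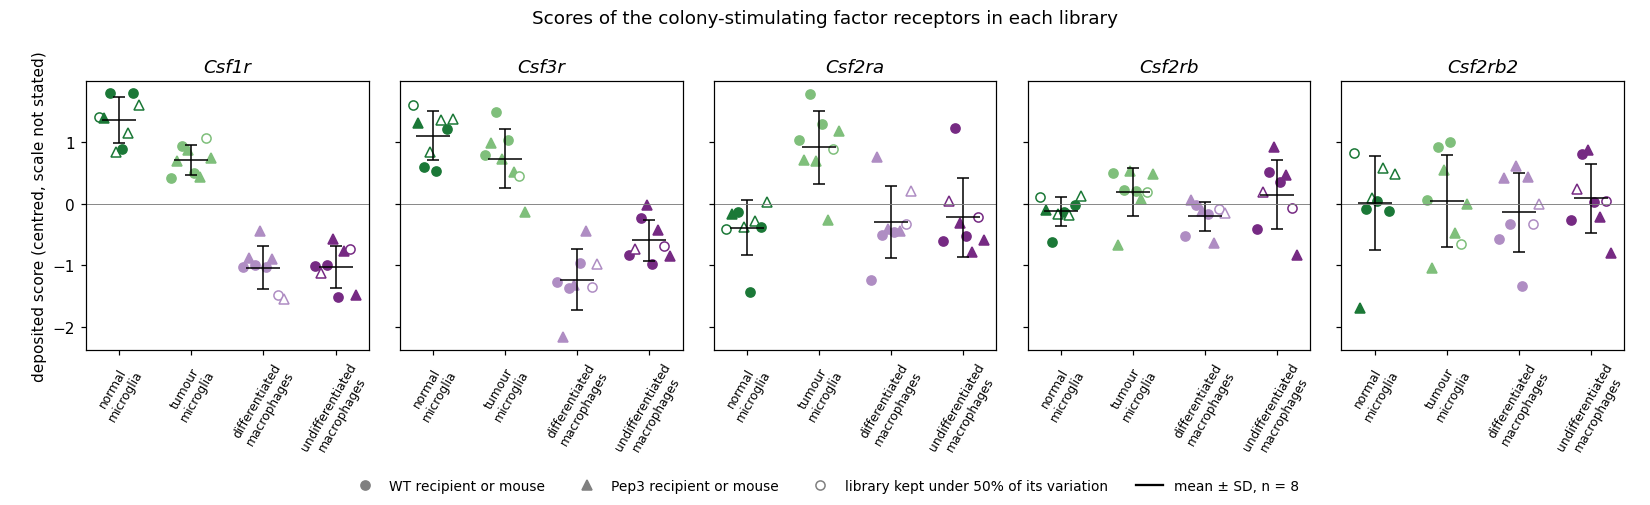
Deposited score of each receptor gene (vertical axis, centred, scale not stated) in the 32 libraries by population. Points are libraries, circles WT and triangles Pep3, open where a library kept under 50% of its variation, and bars show the mean ± SD (n = 8). Csf1r and Csf3r sit above 0 in microglia and below it in macrophages, with 1 tumour microglia library of Csf3r at -0.14, while Csf2ra is highest in tumour microglia and the beta-chain genes overlap in all populations.

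Csf1r fell by 1.78 ± 0.28 (SE) from tumour microglia to differentiated macrophages (adjusted p = 5.82e-05) and by 1.98 ± 0.29 to undifferentiated macrophages (adjusted p = 4.34e-05). Against normal microglia the differences were -2.38 ± 0.27 for differentiated (adjusted p = 2.34e-06) and -2.58 ± 0.29 for undifferentiated macrophages (adjusted p = 1.94e-06). The comparisons that share a microglia population share its libraries. By p-value, Csf1r ranked 63 and 56 among all 17586 genes in the comparisons with normal microglia. In these bulk samples, fewer cells of a type and less RNA per cell cannot be told apart.

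Between tumour and normal microglia, the Csf1r difference of -0.60 ± 0.27 did not pass the threshold (adjusted p = 0.126, 95% interval -1.16 to -0.04), and 3 of the 8 tumour microglia libraries lay inside the range of normal microglia. The call was made (-0.65, adjusted p = 0.0405) when the removed directions were not modelled. Differentiated and undifferentiated macrophages differed by 0.20 ± 0.32 (adjusted p = 1.00, interval -0.46 to 0.86). The order of Csf1r scores was therefore normal microglia, tumour microglia and then both macrophage populations. Only the step from microglia to macrophages was called with the removed directions modelled.

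The experiment numbers in the labels split each tumour population in the same way, 4 libraries in experiment 3 and 4 in experiment 4. Within an experiment the macrophages and the tumour microglia came from opposite recipient strains. Csf1r was lower in differentiated macrophages than in tumour microglia by similar deposited means in both, with differences of -1.82 in experiment 3 and -1.68 in experiment 4. For undifferentiated macrophages these were -1.76 and -1.72. In each of these 4 splits no macrophage library reached the lowest tumour microglia library. The share of all genes separated in this way, with 4 libraries a side, was not counted. Normal microglia were in experiments 1 and 2, with no other population, so a difference from them cannot be told apart from experiment, graft or implant. Limma contrasts within each recipient strain were also taken, in the fit of all 32 libraries. Macrophages against tumour microglia in WT recipients missed the threshold (-1.55, adjusted p = 0.119, and -1.72, adjusted p = 0.11). The contrasts in Pep3 recipients passed it (-2.00 and -2.23). Neither of these population differences was called as differing between WT and Pep3 recipients. Over all 17586 genes the WT contrasts called 65 and 56, and the Pep3 contrasts 5412 and 5253. Each of these contrasts sets macrophages and tumour microglia of different experiments against each other, so recipient and experiment cannot be told apart in them.

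Csf3r, the G-CSF receptor gene, also scored high in microglia and low in macrophages. Its lowest, median and highest scores were 0.52, 1.26 and 1.60 in normal microglia. Tumour microglia had -0.14, 0.76 and 1.49. The values were -2.18, -1.30 and -0.44 in differentiated macrophages and -0.98, -0.71 and -0.02 in undifferentiated macrophages. All macrophage libraries lay below 0 and all but 1 of the microglia libraries above it; that tumour microglia library, number 30 at -0.14, lay inside the range of undifferentiated macrophages and above all differentiated ones. Population accounted for 84.8% of the variance of Csf3r.

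Csf3r fell from tumour microglia to differentiated macrophages by 2.00 ± 0.33 (adjusted p = 9.09e-05) and to undifferentiated macrophages by 1.30 ± 0.35 (adjusted p = 0.00491). From normal microglia it fell by 2.41 ± 0.32 (adjusted p = 1.57e-05) and 1.71 ± 0.34 (adjusted p = 0.00123). The difference between tumour and normal microglia was -0.41 ± 0.32 (adjusted p = 0.401, interval -1.07 to 0.25). Within experiments 3 and 4 the deposited means of differentiated macrophages and tumour microglia differed by -1.76 and -2.18, and those of undifferentiated macrophages and tumour microglia by -1.20 and -1.45, with no overlap of libraries in any of the 4. As for Csf1r, the share of all genes without overlap in these splits was not counted.

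The mean Csf3r score was lowest in differentiated macrophages, at -1.24 ± 0.49 (SD, n = 8), against -0.60 ± 0.33 in undifferentiated macrophages, and 2 of the 8 differentiated libraries lay inside the undifferentiated range. The fitted difference, -0.71 ± 0.38, was not called (adjusted p = 1.00, interval -1.50 to 0.08). Of 12 listed neutrophil genes 2 were in the table, Cxcr2 and Mmp8. Their mean score ran from -1.43 to 0.53 over the microglia libraries and from -0.39 to 1.91 over the macrophage libraries. Cxcr2, a chemokine receptor of neutrophils, rose from tumour microglia to differentiated macrophages (1.44 ± 0.44, adjusted p = 0.0114) where Csf3r fell, as did Mmp8, a neutrophil protease (1.23 ± 0.47, adjusted p = 0.0389). With library medians subtracted those differences were 0.77 and 0.56, and neither was called (adjusted p = 0.132 and 0.34).

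Csf2ra, the GM-CSF-binding chain, had another pattern and was highest in tumour microglia. The lowest, median and highest scores were -1.44, -0.33 and 0.02 in normal microglia and -0.26, 0.97 and 1.79 in tumour microglia. Differentiated macrophages had -1.25, -0.42 and 0.77, and undifferentiated macrophages -0.79, -0.42 and 1.23. Of the 8 tumour microglia libraries 7 lay above all normal microglia, and number 22, at -0.26, lay among them. Among the macrophages, differentiated library 7 at 0.77 and undifferentiated library 13 at 1.23 reached into the range of tumour microglia.

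Csf2ra rose from normal to tumour microglia by 1.28 ± 0.36 (adjusted p = 0.0192). It fell from tumour microglia to differentiated macrophages by 1.16 ± 0.38 (adjusted p = 0.016) and to undifferentiated macrophages by 1.11 ± 0.39 (adjusted p = 0.0268). These 3 comparisons share the 8 tumour microglia libraries. Differences from normal microglia were 0.12 ± 0.37 for differentiated (adjusted p = 0.816) and 0.17 ± 0.39 for undifferentiated macrophages (adjusted p = 0.763), so below tumour microglia the order of the other populations was within their spread.

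The Csf2ra calls were lost more easily than those of Csf1r and Csf3r. The rise from normal to tumour microglia was 2.08 in WT and 0.48 in Pep3 recipients, neither of them called (adjusted p = 0.145 and 0.699), and it was not called with library weights (adjusted p = 0.106). It also lost its call when any of 5 libraries was left out: normal microglia 10 (0.70, adjusted p = 0.376), 18 (1.29, adjusted p = 0.103), 2 (1.19, adjusted p = 0.0637) and 1 (1.70, adjusted p = 0.112), and tumour microglia 27 (1.29, adjusted p = 0.0905). The fall to differentiated macrophages lost it without tumour microglia 27 (-1.17, adjusted p = 0.0605) or undifferentiated macrophages 29 (-0.88, adjusted p = 0.102), and the fall to undifferentiated macrophages without any of 7 libraries (-0.82 to -1.12, adjusted p up to 0.156). Within experiments 3 and 4 the deposited means of differentiated macrophages and tumour microglia differed by -1.22 and -1.22, without overlap of libraries. For undifferentiated macrophages the values were -0.61 in experiment 3, with overlap, and -1.66 in experiment 4, without. Here too, the share of all genes without overlap within an experiment was not counted.

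Csf2rb and Csf2rb2 encode near-identical beta chains, and reads from part of their length fit both genes. Over the longest coding transcripts of GENCODE M21 (GRCm38), 2688 and 2634 bases long, 2503 of 2628 aligned bases were identical (95.2%), and 1 stretch of 242 bases, at coding bases 2083 to 2324 in both, was the same in every base. Of all windows of 50 bases, 687 of 2639 in Csf2rb and 687 of 2585 in Csf2rb2 occurred unchanged in the other gene, and of windows of 100 bases 286 of 2589 and 286 of 2535. Of the 60-base windows aligned without a gap, the least alike shows where reads can be assigned to 1 gene. It spans coding bases 304 to 363 of Csf2rb and 307 to 366 of Csf2rb2. Its 13 differing bases are in capitals, and it is written 5′ to 3′.
Csf2rb: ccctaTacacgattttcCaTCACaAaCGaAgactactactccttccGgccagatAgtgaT
Csf2rb2: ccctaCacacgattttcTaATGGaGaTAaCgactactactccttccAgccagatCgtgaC
RSEM, which divides reads among the transcripts they fit, was used per the submitters' processing notes, so the split between these genes is an estimate and both are reported as uncertain.

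Csf2rb scores changed little from library to library, with an SD of 0.401 over the 32 libraries; 1.41% of genes had a lower SD. The lowest, median and highest scores were -0.63, -0.12 and 0.13 in normal and -0.67, 0.21 and 0.53 in tumour microglia. They were -0.63, -0.14 and 0.06 in differentiated and -0.83, 0.28 and 0.92 in undifferentiated macrophages. All 4 ranges overlapped, and the widest was that of undifferentiated macrophages.

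No Csf2rb difference was called. Tumour and normal microglia differed by 0.31 ± 0.32 (adjusted p = 0.542, interval -0.35 to 0.96). The difference from tumour microglia was -0.45 ± 0.33 for differentiated macrophages (adjusted p = 0.284, interval -1.13 to 0.23) and 0.08 ± 0.34 for undifferentiated macrophages (adjusted p = 0.883, interval -0.64 to 0.79). With the median of each library subtracted, the first of these became -1.12 and was called (adjusted p = 0.0127).

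Csf2rb2 scores ranged more widely within populations than between them. They ran from -1.69 to 0.82 (median 0.07) in normal and from -1.04 to 1.00 (median 0.02) in tumour microglia. The range was -1.34 to 0.61 (median -0.17) in differentiated and -0.81 to 0.87 (median 0.03) in undifferentiated macrophages. Population accounted for 1.81% of its variance, the least of the 5 receptors, against 18.7% for Csf2rb and 49.9% for Csf2ra. The differences from tumour microglia were -0.16 ± 0.39 for differentiated macrophages (adjusted p = 0.771, interval -0.97 to 0.65) and 0.31 ± 0.41 for undifferentiated macrophages (adjusted p = 0.575, interval -0.54 to 1.15). Tumour and normal microglia differed by -0.04 ± 0.38 (adjusted p = 0.952, interval -0.82 to 0.74).

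Across the receptors, 3 of 5 fell from tumour microglia to differentiated macrophages (Csf1r, Csf3r and Csf2ra) where 6.35% of all genes fell and far more, 6510 of 17586, rose. The same 3 fell to undifferentiated macrophages, where 5.19% of all genes fell and 6448 rose. Against normal microglia 2 of 5, Csf1r and Csf3r, fell in differentiated macrophages (8.02% of all genes) and in undifferentiated macrophages (6.18%). From normal to tumour microglia 1 of 5 rose, Csf2ra, where 4.66% of all genes rose, and no receptor fell, where 2116 of the 17586 genes did. Between differentiated and undifferentiated macrophages no receptor was called by limma and none had an unadjusted p below 0.05, while 0.0114% of all genes were called and 2.79% had an unadjusted p below 0.05.

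**Figure D2:**
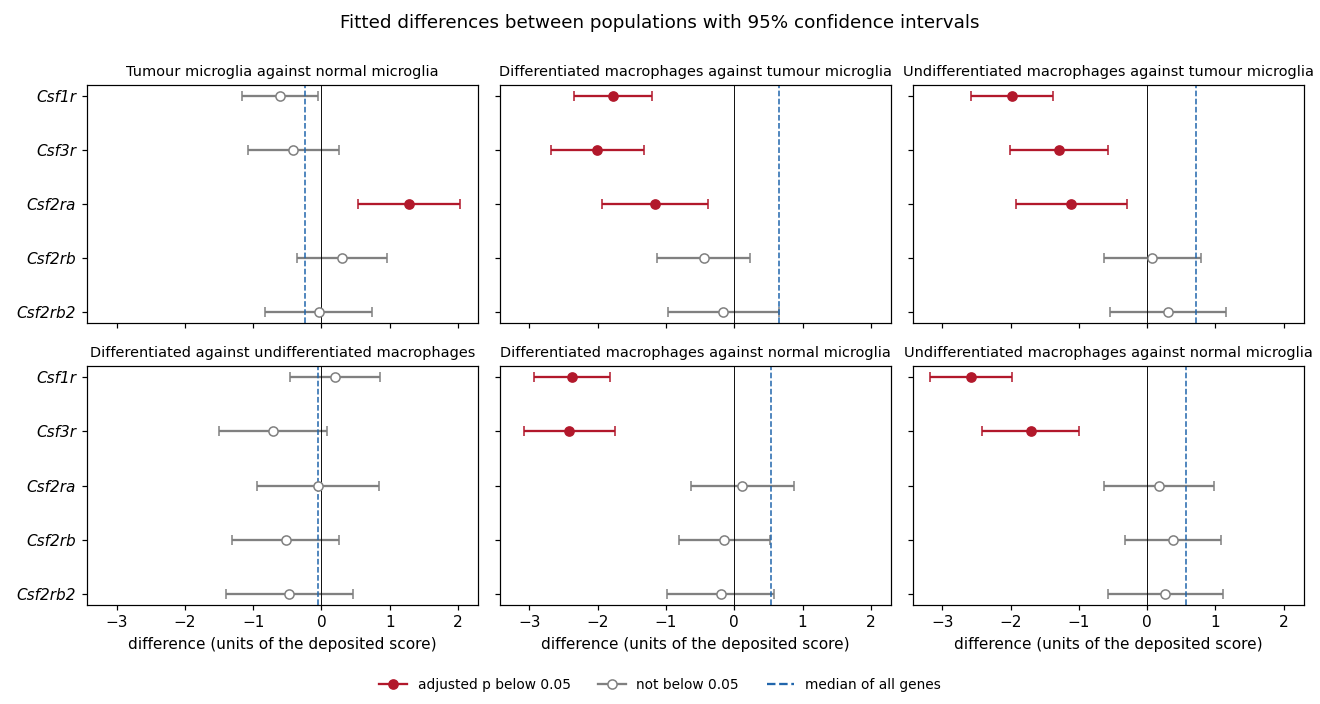
Fitted limma difference of each receptor gene (horizontal axis, score units) with its 95% confidence interval in the 6 comparisons, red and filled where the adjusted p was below 0.05. The dashed line is the median difference of all genes, 0.65 and 0.71 in the comparisons of macrophages with tumour microglia, where Csf1r lies at -1.78 and -1.98.

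Genes as a whole scored higher in macrophages than in microglia on this scale: the median difference over all genes was 0.65 and 0.71 against tumour microglia and 0.53 and 0.57 against normal microglia, and -0.25 between tumour and normal microglia. With library medians subtracted, Csf1r differed from tumour microglia by -2.44 and -2.70 and Csf3r by -2.67 and -2.02, all called. Csf2ra was also called in both, at -1.83 and -1.83, and stayed higher in tumour than in normal microglia by 1.52 (adjusted p = 0.0052).

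Libraries of a population also lay wholly below another population for some receptors. Csf1r did so in differentiated and undifferentiated macrophages against tumour microglia, a position held by 1.31% of all genes in each comparison. Against normal microglia Csf1r and Csf3r did so in both macrophage populations, where 3.41% and 3.2% of all genes did. Csf3r was also wholly below tumour microglia in differentiated macrophages. These positions were the same among the libraries that kept over 50% of their variation.

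No receptor's difference between populations was called as differing between WT and Pep3 recipients (30 tests, 0 called). The lowest limma adjusted p was 0.144 (unadjusted p = 0.00749), for Csf2rb2 in differentiated macrophages against tumour microglia. The fitted difference there was -1.71 in WT and 1.39 in Pep3 recipients. In each recipient strain these populations came from different experiments, so recipient and experiment cannot be told apart in this test. Within experiments 3 and 4 the deposited Csf2rb2 means of these populations differed by -0.40 and 0.03.

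Among all genes, those most like Csf1r over the 32 libraries were Trem2, Tmem119, Plxdc2, Cst3 and Cx3cr1, with Pearson r from 0.968 to 0.974. Trem2 encodes a lipid-sensing receptor of microglia, and Cx3cr1 the receptor of fractalkine; Tmem119 and Cx3cr1 are among the 9 microglia markers. For Csf3r they were Ddx26b, Clk1, Cd37, Mlxipl and Ppcdc, with r from 0.932 to 0.945, and Csf1r itself came at rank 59 with r = 0.877. In the list of Csf1r, Csf3r came at rank 135. These points share populations and removed directions, so the values are a description. Within populations the r between Csf1r and Csf3r ran from -0.14 to 0.75 over 8 libraries each.

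The other receptors had looser partners. Among the genes most like Csf2ra were Casp4, Tagap, Med4 and Fastkd3 (r from 0.733 to 0.795), of which Casp4 encodes an inflammatory caspase. Csf2rb was most like Aasdh, D10Jhu81e, Smg5, Azi1 and Ptk2b (r from 0.664 to 0.675), and Csf2rb2 most like Pitpnm1, Usp20, 2310028H24Rik, Peg13 and Iars2 (r from 0.707 to 0.757). The beta-chain genes had r = 0.456 with each other: Csf2rb2 came at rank 92 in the list of Csf2rb, and Csf2rb at rank 303 in that of Csf2rb2. Csf2ra had r = 0.404 with Csf2rb. Whether the reads shared by the beta-chain genes affected their r of 0.456 was not tested.

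Of the receptors' ligands, only Csf1 was in the table, and Il34, Csf2, Csf3, Il3 and Il5 were not analysed here. Csf1 scores ran from -1.89 to 0.51 (median -0.13) in normal and from -1.14 to 1.30 (median 0.61) in tumour microglia. The range was -0.52 to 0.85 (median 0.20) in differentiated and -1.23 to 0.92 (median -0.012) in undifferentiated macrophages. The differences were 0.59 ± 0.45 between tumour and normal microglia (adjusted p = 0.394), and 0.15 ± 0.47 and -0.14 ± 0.49 for differentiated and undifferentiated macrophages against tumour microglia (adjusted p = 0.817 and 0.84). No Csf1 difference passed the threshold in the direction of Csf1r or against it.

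The other alpha chains that pair with the shared beta chain, Il3ra and Il5ra, both rose from tumour microglia to macrophages, where Csf2ra fell. In these comparisons 6510 and 6448 of all 17586 genes rose, and the median difference over all genes was 0.65 and 0.71. Il3ra, the IL-3-binding chain, rose from tumour microglia to differentiated macrophages by 1.76 ± 0.37 (adjusted p = 0.000736) and to undifferentiated macrophages by 2.12 ± 0.39 (adjusted p = 0.00026). Its median score was -0.92 in normal and -1.10 in tumour microglia, and 0.87 and 1.02 in differentiated and undifferentiated macrophages. Il5ra, the IL-5-binding chain, fell from normal to tumour microglia by 1.74 ± 0.38 (adjusted p = 0.00416), where Csf2ra rose and 2116 of all 17586 genes fell. It rose by 1.79 ± 0.40 and 2.42 ± 0.42 from tumour microglia to the macrophage populations (adjusted p = 0.00109 and 0.00015). All 5 calls held with library medians subtracted.

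The other class III receptor tyrosine kinases, the family of CSF1R, rose where Csf1r fell, in comparisons in which 6510 and 6448 of all 17586 genes rose. Of the 3 measured of 4 listed, all 3 rose from tumour microglia to each macrophage population. From normal to tumour microglia 2 of the 3 fell, where 2116 of all 17586 genes fell. Kit, the receptor of stem cell factor, rose by 2.77 ± 0.46 and 2.42 ± 0.48 (adjusted p = 9.2e-05 and 0.000513), and Pdgfra by 1.93 ± 0.42 and 2.32 ± 0.43. From normal to tumour microglia, Kit fell by 2.23 ± 0.44 (adjusted p = 0.00212) and Pdgfra by 1.34 ± 0.40 (adjusted p = 0.0255). Pdgfrb rose by 1.18 and 1.40, which was not called with library medians subtracted. Against normal microglia none of the 3 was called in either macrophage population. There, 5757 of all 17586 genes were called in differentiated and 4925 in undifferentiated macrophages.

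**Figure D3:**
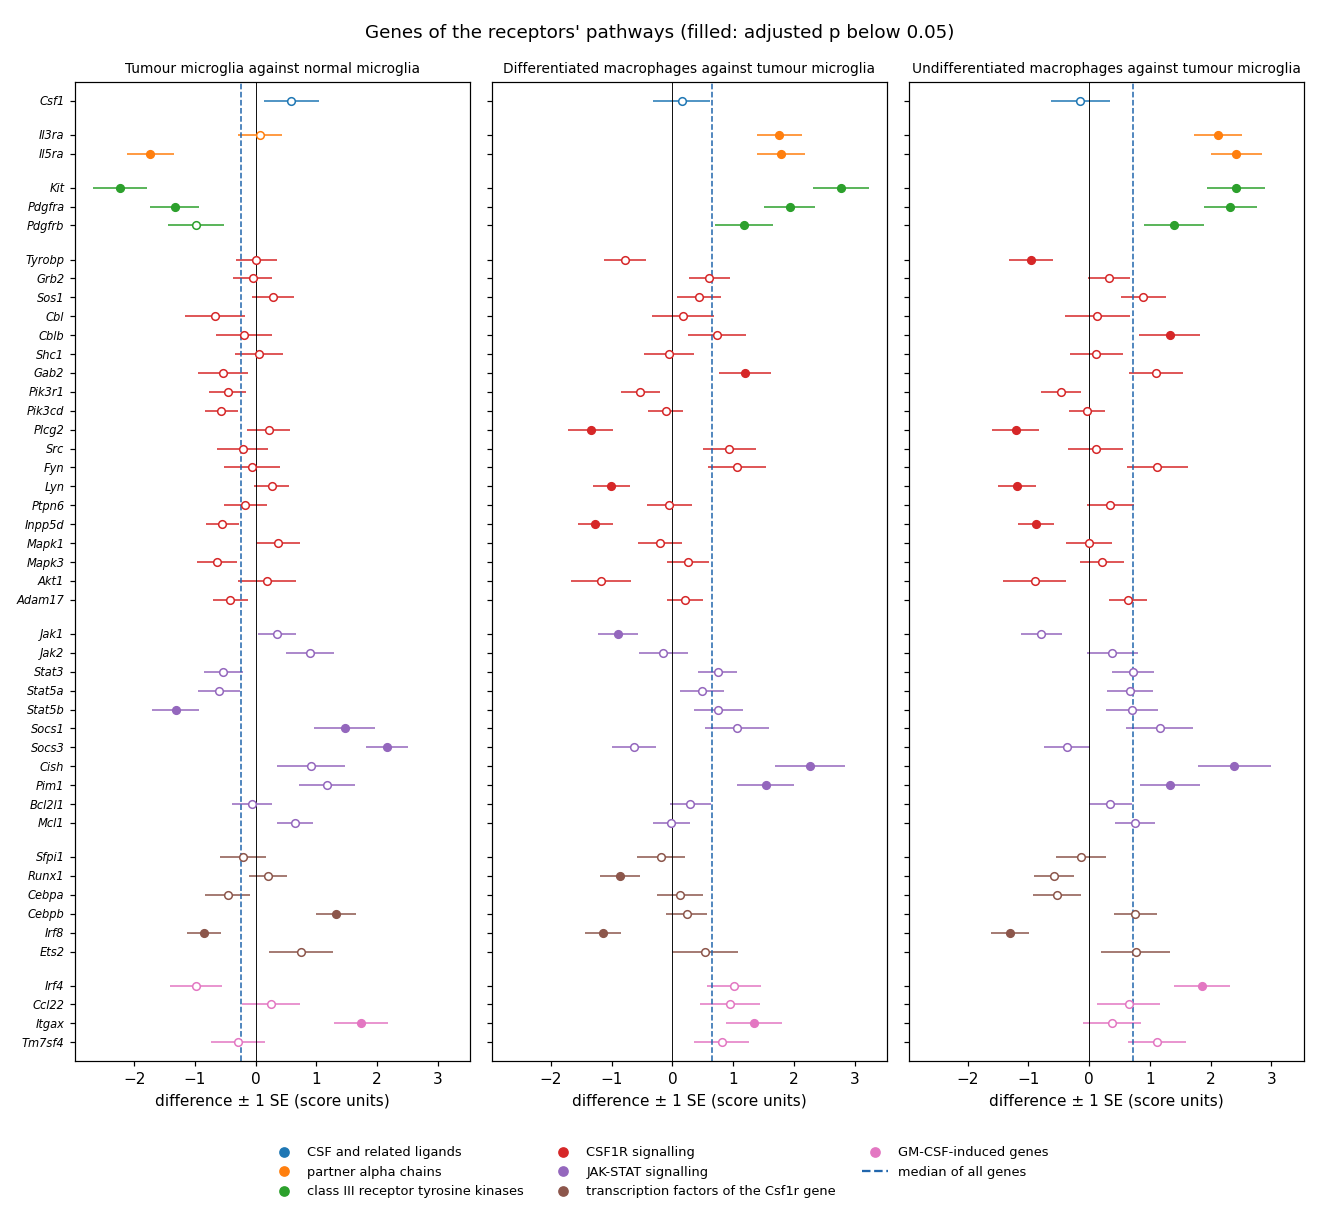
Difference ± 1 SE (horizontal axis, score units) of measured genes of the receptors' pathways in 3 comparisons, coloured by list and filled where the limma adjusted p was below 0.05. Il3ra, Il5ra and Kit lie to the right of the dashed median of all genes in both comparisons of macrophages with tumour microglia, at 1.76 to 2.77, while Inpp5d, Lyn and Plcg2 lie to its left, at -0.88 to -1.34.

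From tumour microglia to differentiated macrophages, 3 of 20 genes of CSF1R signalling fell, 1 rose and 16 did not pass, where 6.35% of all genes fell and 6510 of 17586 rose. With library medians subtracted 8 fell and none rose, as also in undifferentiated macrophages. In that setting 6871 of all 17586 genes were called in either direction in differentiated macrophages, and 5796 in undifferentiated macrophages. The list's median difference was -0.06 against 0.65 over all genes. Those that fell were Plcg2 (-1.34 ± 0.37, adjusted p = 0.00552), a phospholipase of myeloid receptors, Inpp5d (-1.27 ± 0.28, adjusted p = 0.00105), the lipid phosphatase SHIP-1, and Lyn (-1.01 ± 0.30, adjusted p = 0.00982), a SRC-family kinase. The 1 that rose was Gab2, an adaptor (1.20 ± 0.42, adjusted p = 0.0263), no longer called with library medians subtracted.

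In undifferentiated macrophages the same 3 fell, by 1.21 ± 0.39, 0.88 ± 0.29 and 1.19 ± 0.32, as did Tyrobp, the adaptor DAP12 (-0.96 ± 0.36, adjusted p = 0.0358). Cblb, a ubiquitin ligase, rose by 1.32 ± 0.50 and lost its call with library medians subtracted. Against normal microglia Inpp5d fell by 1.81 ± 0.27 in differentiated and 1.43 ± 0.29 in undifferentiated macrophages. None of the 20 was called between tumour and normal microglia, where 16.7% of all genes were. Inpp5d scores ran from -0.07 to 1.08 over the microglia libraries and from -1.32 to -0.12 over the macrophage libraries. These ranges did not overlap, as for 0.574% of all genes in that direction.

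JAK-STAT genes, which serve Csf2ra, the beta chains and Csf3r, differed between microglia of tumours and of normal brain in 3 of 11, where 16.7% of all genes were called. Socs3, a feedback inhibitor of cytokine receptors that includes the G-CSF receptor among its targets, rose by 2.16 ± 0.35 (adjusted p = 0.000504), with scores from -1.89 to -0.80 in normal and from 0.07 to 1.57 in tumour microglia. Those ranges did not overlap, as for 1.77% of all genes. Socs1, of the same family, rose by 1.47 ± 0.51 (adjusted p = 0.0488). Stat5b, a transcription factor of the GM-CSF pathway, fell by 1.32 ± 0.39 (adjusted p = 0.0239; 0.0548 with library medians subtracted).

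In the macrophages, Cish, a STAT5-induced inhibitor, rose from tumour microglia by 2.27 ± 0.58 in differentiated and 2.39 ± 0.61 in undifferentiated cells (adjusted p = 0.00323 and 0.0033). Its median score was -1.68 in normal and -0.71 in tumour microglia, and 1.39 and 1.07 in differentiated and undifferentiated macrophages. Pim1, a kinase induced by STATs, rose by 1.53 ± 0.47 and 1.33 ± 0.50, which was not called with library medians subtracted. Jak1 fell by 0.89 ± 0.33 in differentiated macrophages (adjusted p = 0.0302). Against normal microglia 4 of the 11 rose in differentiated macrophages (Cish, Pim1, Socs1 and Socs3) and 6 in undifferentiated macrophages (those 4 with the largest differences among them), where 24.7% and 21.8% of all genes rose. With library medians subtracted the count in undifferentiated macrophages was 4, where 18.4% of all genes were called in either direction.

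Of 6 transcription factors known to act on the Csf1r gene, Irf8 moved in the direction of Csf1r. Irf8 medians were 1.07 in normal and 0.40 in tumour microglia, and -0.85 and -0.78 in differentiated and undifferentiated macrophages. It fell by 1.14 ± 0.30 and 1.30 ± 0.31 from tumour microglia to the macrophage populations (adjusted p = 0.00372 and 0.00214) and by 0.85 ± 0.29 from normal to tumour microglia (adjusted p = 0.0447; 0.168 with library medians subtracted). Runx1 fell by 0.86 ± 0.32 in differentiated macrophages (adjusted p = 0.0334).

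Cebpb, a factor of inflammatory macrophages, rose from normal to tumour microglia by 1.32 ± 0.32 (adjusted p = 0.00828). Spi1, the gene of PU.1, is listed under its older symbol Sfpi1 and was added after its values were seen. Its differences were -0.21 ± 0.38 between tumour and normal microglia and -0.19 ± 0.40 and -0.14 ± 0.41 from tumour microglia to the macrophages (adjusted p = 0.742, 0.726 and 0.815).

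Of 6 genes listed as induced by GM-CSF, 4 were measured, and 1 passed in each of the 5 comparisons that involve microglia, in which 16.7% to 43.4% of all genes were called. Itgax, the integrin CD11c, rose from normal to tumour microglia by 1.73 ± 0.44 (adjusted p = 0.0106), where Csf2ra rose. It rose by 1.34 ± 0.46 to differentiated macrophages (adjusted p = 0.0213; 0.236 with library medians subtracted), where Csf2ra fell. Irf4 rose by 1.85 ± 0.46 to undifferentiated macrophages (adjusted p = 0.00292; 0.0761 with library medians subtracted). Pparg and Ccl17 were not analysed here.

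No pathway gene was called between differentiated and undifferentiated macrophages. Markers of other cells moved with the macrophage comparisons in which Csf1r, Csf3r and Csf2ra fell, and their part in those results was not tested. They also moved from normal to tumour microglia, where Csf2ra rose: 2 of 9 microglia markers fell, 1 of 5 monocyte markers rose and 2 fell, and 1 of 4 dendritic cell markers rose. There, 2116 of all 17586 genes fell and 4.66% rose. All 9 microglia markers fell and all 6 markers of blood-derived macrophages rose in each of the 4 comparisons of macrophages with microglia. Of all genes, 5.19% to 8.02% fell in these comparisons. Against normal microglia, 24.7% of all genes rose in differentiated and 21.8% in undifferentiated macrophages. Of 5 measured monocyte markers 4 and 5 rose from tumour microglia to differentiated and undifferentiated macrophages, where 6510 and 6448 of all 17586 genes rose. Their mean scores ran from -1.97 to -0.74 over the microglia libraries, from -0.60 to 1.98 in differentiated and from 0.79 to 3.42 in undifferentiated macrophages. The mean score of 4 measured of 7 dendritic cell markers ran from -1.49 to 0.72 in microglia and -0.42 to 1.21 in macrophages. That of 2 of 4 glioma cell markers ran from -1.82 to 0.34 and from 0.05 to 1.50. The single measured markers of mast cells or basophils (of 5, Gata2) and T cells (of 5, Lck) ran from -4.03 to 1.34 and from -2.22 to 1.28 in microglia, and from -0.57 to 1.90 and from -1.10 to 2.01 in macrophages. Because scores are centred, whether a marker was absent from a population cannot be read from them.

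**Figure D4:**
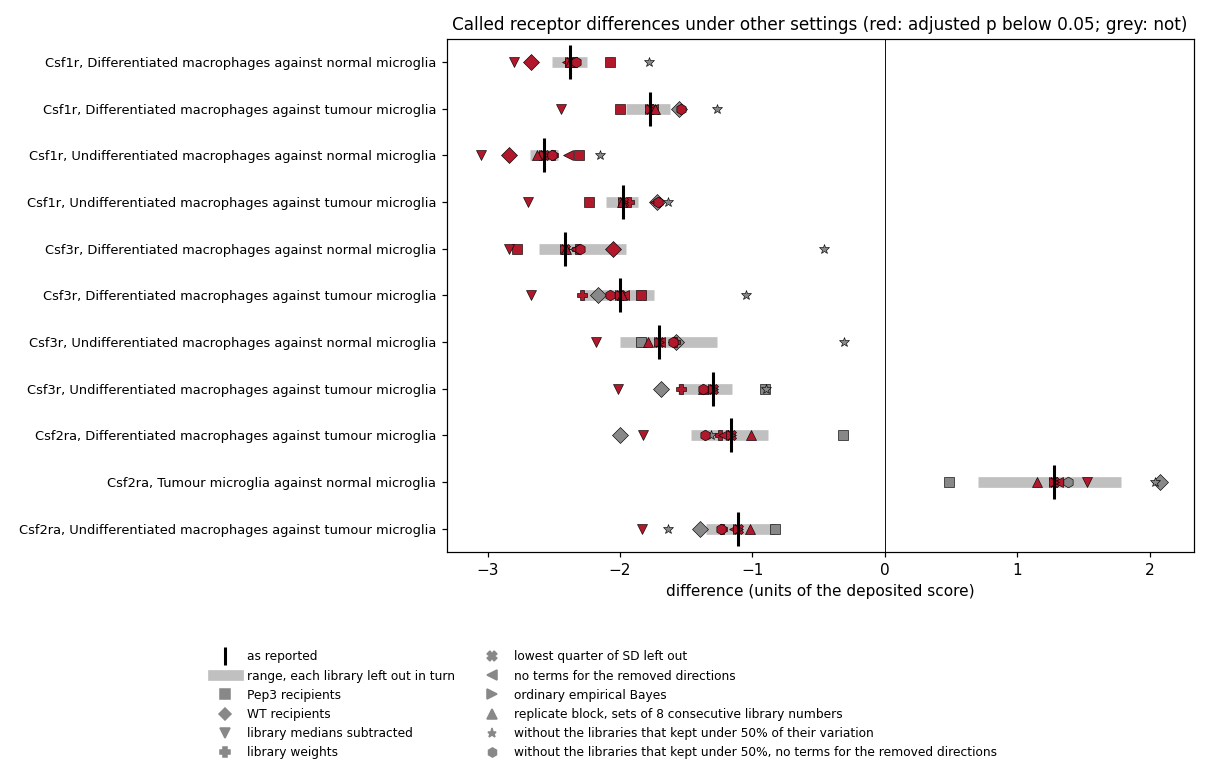
The 11 called receptor differences (horizontal axis, score units) as reported (black bars), over the leave-one-out range (grey bands) and under other settings (symbols, red where the adjusted p was below 0.05 and grey where not). All symbols stay on their side of 0, and the stars, the fit without the 9 libraries that kept under 50% of their variation, are grey for all 11.

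All 8 calls of Csf1r and Csf3r between macrophages and microglia held when any single library was left out, with adjusted p up to 0.0046 for Csf1r and 0.0344 for Csf3r. Without the 9 libraries that kept under 50% of their variation, and with the removed directions still modelled, 6 residual degrees of freedom were left and no receptor was called in any comparison, nor were more than 4 of all 17586 genes. Csf1r then differed by -1.27 between differentiated macrophages and tumour microglia (adjusted p = 0.564) and Csf3r by -1.05. Without those libraries and without terms for the removed directions, a setting chosen after seeing the data, all 8 calls held, while the difference of Csf2ra between tumour and normal microglia was 1.38 and was not called (adjusted p = 0.168).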

How the data were processed

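The analysed values are 17586 genes in 32 libraries. The libraries were made with the Clontech SMART-Seq v4 kit, per the labels' protocols. Per the submitters' processing notes, the tools were FastQC, STAR 2.5.0a and RSEM 1.3.0, and the build was mm9. The deposited table held signed, centred values, used here as scores; neither their scale nor the step that centred them is stated, and depth is unknown. All genes and libraries were fitted with limma 3.58.1 (R 4.3.3, robust empirical Bayes, two-sided), with means by population and recipient strain and 9 terms for removed directions, which left 15 residual degrees of freedom. The other 2 removed directions were the overall mean and the recipient strain. Contrasts within each recipient strain were taken from the same fit. The alternatives were these contrasts, library medians subtracted, library weights, a filter on low SD and no direction terms. Ordinary empirical Bayes, a replicate block and libraries left out were further alternatives. The script was tested on simulated data. Receptors were always named, with up to 4 called genes of each pathway list with the largest difference, and the 5 genes most like each receptor, except for 1 gene that is not reported here. The members and lists were chosen with earlier results of these data known. Sequences came from RefSeq and GENCODE.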

Additional observations from a re-analysis of the deposited data

Results flagged for a closer look

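In 5 of the 20 groups of 8 libraries (5 receptors in 4 populations), 1 library lay far outside the others by Dixon's 95% criterion, which chance alone meets in about 1 of 20 groups. Csf2ra in normal microglia was -1.44 in library 17, against -0.41 to 0.02 in the other libraries. In undifferentiated macrophages Csf2ra was 1.23 in library 13, against -0.79 to 0.05. Csf2rb in normal microglia was -0.63 in library 9, against -0.18 to 0.13, and in tumour microglia -0.67 in library 6, against 0.07 to 0.53. Csf2rb2 in normal microglia was -1.69 in library 2, against -0.13 to 0.82. All 5 libraries kept over 50% of their variation. None of the groups of Csf1r or Csf3r held such a library.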

How the results depend on the processing

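Of the 30 receptor differences, 11 were called. Below, each comparison is written as its first and second population, as differentiated/tumour for differentiated macrophages against tumour microglia, and values are differences in score units. All 30 kept their sign and their side of the threshold under ordinary empirical Bayes, as did all 18 of Csf1r, Csf3r and Csf2ra when the genes of lowest SD were left out; that filter removed Csf2rb and Csf2rb2. Of the sign changes, all were of differences that were not called. With library medians subtracted, a call was gained for Csf2rb in differentiated/tumour -1.12. Differences of the opposite sign were those of Csf2ra in differentiated/undifferentiated 0.0049, differentiated/normal -0.30 and undifferentiated/normal -0.31, Csf2rb in undifferentiated/normal -0.095 and undifferentiated/tumour -0.65, Csf2rb2 in tumour/normal 0.20, undifferentiated/normal -0.21 and undifferentiated/tumour -0.41. With no terms for the removed directions, a call was gained for Csf1r in tumour/normal -0.65. The sign changed for Csf1r in differentiated/undifferentiated -0.011, Csf2rb in undifferentiated/tumour -0.049, Csf2rb2 in tumour/normal 0.027. With library weights, calls were lost for Csf2ra in tumour/normal 1.28. Differences of the opposite sign were those of Csf2rb2 in differentiated/normal 0.18, tumour/normal 0.62 and undifferentiated/tumour -0.054. In WT recipients alone, calls were lost for Csf1r in differentiated/tumour -1.55 and undifferentiated/tumour -1.72, Csf2ra in differentiated/tumour -2.00, tumour/normal 2.08 and undifferentiated/tumour -1.39, Csf3r in differentiated/tumour -2.16, undifferentiated/normal -1.57 and undifferentiated/tumour -1.69. The sign changed for Csf2rb in undifferentiated/tumour -0.19, Csf2rb2 in tumour/normal 0.077, undifferentiated/normal -0.48 and undifferentiated/tumour -0.56, Csf3r in tumour/normal 0.11. In Pep3 recipients alone, calls were lost for Csf2ra in differentiated/tumour -0.32, tumour/normal 0.48 and undifferentiated/tumour -0.83, Csf3r in undifferentiated/normal -1.84 and undifferentiated/tumour -0.90. Differences of the opposite sign were those of Csf2ra in differentiated/undifferentiated 0.51 and undifferentiated/normal -0.34, Csf2rb2 in differentiated/undifferentiated 0.21, differentiated/normal 1.23 and differentiated/tumour 1.39. Without the 9 libraries that kept under 50% of their variation, calls were lost for Csf1r in differentiated/normal -1.78, differentiated/tumour -1.27, undifferentiated/normal -2.15 and undifferentiated/tumour -1.64, Csf2ra in differentiated/tumour -1.31, tumour/normal 2.04 and undifferentiated/tumour -1.64, Csf3r in differentiated/normal -0.46, differentiated/tumour -1.05, undifferentiated/normal -0.31 and undifferentiated/tumour -0.90. The sign changed for Csf2ra in differentiated/undifferentiated 0.32, Csf2rb in undifferentiated/normal -0.035 and undifferentiated/tumour -0.094, Csf2rb2 in differentiated/normal 1.31, tumour/normal 1.67 and undifferentiated/tumour -0.21, Csf3r in tumour/normal 0.59. Without those 9 and with no direction terms, calls were lost for Csf2ra in tumour/normal 1.38. Differences of the opposite sign were those of Csf2rb in undifferentiated/tumour -0.037, Csf2rb2 in differentiated/normal 0.74, tumour/normal 1.08 and undifferentiated/tumour -0.14. With each library left out in turn, Csf2ra differences that changed ran from -0.25 to 0.21 in differentiated/undifferentiated, -0.55 to 0.63 in differentiated/normal, -1.46 to -0.88 in differentiated/tumour, 0.70 to 1.78 in tumour/normal, -0.29 to 0.65 in undifferentiated/normal, -1.35 to -0.82 in undifferentiated/tumour. Csf2rb differences that changed ran from -0.47 to 0.14 in differentiated/normal, -0.097 to 0.35 in undifferentiated/tumour. Csf2rb2 differences that changed ran from -0.57 to 0.57 in differentiated/normal, -0.57 to 0.29 in differentiated/tumour, -0.53 to 0.98 in tumour/normal, -0.47 to 1.01 in undifferentiated/normal, -0.068 to 0.58 in undifferentiated/tumour. Csf3r differences that changed ran from -0.61 to 0.20 in tumour/normal. The setting without the 9 libraries and with direction terms left 6 residual degrees of freedom instead of 15. Fits in 1 recipient strain rest on 4 libraries a population. For the other changes the cause was not tested. The library numbers run in 4 sets of 8 with 1 library of each population and recipient strain, which the labels do not name as pairs. With these sets as a replicate block, a fit chosen after seeing the data, all 11 calls held, and the sign changed for Csf2ra in differentiated/undifferentiated (0.0072). Deviations of libraries from their group means correlated by -0.65 to 0.62 within sets, over 0.1 in 24 of 112 pairs. Directions had been removed from these scores, so the correlations cannot show whether the sets pair libraries. The main fit did not use the library numbers as pairs. How depth limits these values is unknown.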
